A study of Mus musculus with 2 samples.

Results

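The MHC class II genes H2-Aa, H2-Ab1, H2-Eb1, H2-DMa, H2-DMb1, H2-DMb2, Cd74 and Ciita were followed by name through both single-cell matrices, which list 32285 genes each, so that 8 of 32285 rows are described here. Their values played no part in the choice of cells. The study isolated GR1+ cells with magnetic beads from 4T1 breast carcinomas of BALB/c mice aged 6 to 8 weeks and read them in droplets, with 5 mice pooled into each of 2 libraries by the series record. The paper gives other figures for the pool and for the age of the mice, so both are uncertain. The non-responding library came from the parental line 4T1P, and the responding library from 4T1M, a multiclonal derivative mutagenized with MNNG whose tumors respond to checkpoint therapy. Per the study's methods both were taken at baseline, before any treatment. The libraries were made to set GR1+ cells of the 2 tumors side by side. With 1 pooled library per tumor there is no replicate and no test between them: every interval below is a 95% interval that covers the counting of UMIs or cells, not the spread between mice.

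MHC class II molecules display peptides from internalized material to CD4+ T cells. An alpha chain and a beta chain pair in the endoplasmic reticulum around the invariant chain CD74, which escorts them to endosomes, where cathepsins trim it to the short fragment CLIP. The DM heterodimer then exchanges CLIP for peptide. The genes are on constitutively in B cells and dendritic cells, are induced in macrophages by interferon gamma, and share the co-activator CIITA, which binds no DNA itself but docks on factors that sit on short promoter elements called the X and Y boxes.

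Of the 8 genes, 6 lie within 197 kb of mouse chromosome 17 in GRCm38, the build of the files. H2-DMa (chr17:34119541-34139101, + strand), H2-DMb2 (chr17:34143307-34151555, +) and H2-DMb1 (chr17:34153072-34160230, +) encode the DM chains. H2-Ab1 (chr17:34257689-34269419, +) and H2-Aa (chr17:34282744-34287823, -) encode the beta and alpha chains of the I-A molecule, and H2-Eb1 (chr17:34305867-34316674, +) the beta chain of I-E. The promoters below are shown because the elements that CIITA acts through can be read in them directly. They are RefSeq sequences (GRCm38.p6), printed 5′ to 3′ on the strand of the gene, with capitals for the Y-box letters TGATTGG and for the X-region letters GATGATGCT or TGACGTCA upstream of them.
H2-Aa, chr17:34287837-34287933, - strand: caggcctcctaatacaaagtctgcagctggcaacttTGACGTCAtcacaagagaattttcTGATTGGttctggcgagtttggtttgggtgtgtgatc
H2-Eb1, chr17:34305746-34305842, + strand: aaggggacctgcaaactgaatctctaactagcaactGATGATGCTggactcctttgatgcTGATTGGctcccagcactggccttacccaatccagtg
H2-DMb2, chr17:34145097-34145193, + strand: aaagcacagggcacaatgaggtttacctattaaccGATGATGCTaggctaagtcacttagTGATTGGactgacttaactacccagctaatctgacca

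The letters TGATTGG began 50 bases before the RefSeq start of H2-Aa, 61 before H2-Eb1, 92 before H2-DMb2 and 63 before H2-DMb1. The X-region letters ended 16 bases upstream of them in H2-Aa, H2-DMb1 and H2-DMb2, and 15 bases upstream in H2-Eb1. Searched on both strands of all 32851 RefSeq promoter windows of the same 300 bases, TGATTGG was found in 7.82%, TGACGTCA in 1.79% and GATGATGCT in 0.274%. Neither of the 2 windows listed for H2-DMa holds any of the 3 strings, which says only that these letters are not in those windows. Both H2-DMa windows and the H2-DMb2 window lie inside the gene spans given above, downstream of the gene starts stated there. The H2-DMb1 window (34152941 to 34153240) spans the stated start of that gene, and its TGATTGG and GATGATGCT lie downstream of that start. H2-Ab1, Cd74 and Ciita have no entry in that table.

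Cd74 (chromosome 18, 60803848 to 60812652, + strand) and Ciita (chromosome 16, 10480059 to 10528418, + strand) lie elsewhere in the genome. H2-DMb1 and H2-DMb2 are close copies: of the 30-base windows along the first listed H2-DMb1 transcript, 38.3% also occur in that of H2-DMb2. Within the last 500 bases of each transcript the share was 25.9% for H2-DMb1 and 1.06% for H2-DMb2. How reads were split between these copies was not tested, and their ratio is uncertain for that reason. BALB/c reads were counted against a C57BL/6 reference, and the effect of allelic differences on these polymorphic genes was not tested.

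The deposited matrices hold 2947 barcodes with 21855657 UMIs (non-responding) and 5004 barcodes with 24303957 UMIs (responding). The limits of 500 and 5000 detected genes and of 10% mitochondrial UMIs left 1726 and 3461 cells, and 3 barcode sequences occurred among the kept cells of both. Neutrophils (610 and 1685 cells) had at least 1.5% of UMIs from S100a8 and S100a9 and under 0.5% from C1qa, C1qb, C1qc and Apoe. Macrophages (796 and 973 cells) had under 1.5% from the S100 pair and at least 0.3% from the latter 4 genes, Csf1r, Cd68 and Fn1 together. B cells (35 and 33) had a UMI of at least 2 of Cd79a, Cd79b, Ms4a1 and Ebf1, and T or NK cells (73 and 95), which should lack these genes, had at least 2 T or NK markers and met no other rule. Markers outside the rules are given here for neutrophils and macrophages only, and the T or NK class has none outside its rule. Csf3r, Cxcr2, Retnlg, Il1r2, Mmp9 and Clec4d summed to 10969 and 9179 CPM in neutrophils against 349 and 405 CPM in macrophages, where CPM is UMIs scaled to a class total of 1e6. CPM is not divided by transcript length, so levels are compared between cells and not between genes. Of the monocyte or macrophage markers, Lyz2 was at 10409 and 6758 CPM in macrophages and at 1725 and 1283 CPM in neutrophils, Mrc1 at 670 and 334 CPM against 9.26 and 6.70 CPM, and Trem2 at 275 and 276 CPM against 10.9 and 10.7 CPM. These 3 were picked after their values were seen. The macrophage class is thus a range cut from gene shares within a GR1 selection, not a purified cell type.

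Among the kept cells, macrophages carried most of the class II RNA. The 8 genes together reached 14467.5 CPM (14388 to 14547) in non-responding macrophages and 19872 CPM (19781 to 19962) in responding macrophages. B cells stood higher, at 22746 CPM (22070 to 23438) and 21041.5 CPM (20496 to 21598). In responding this order rests on the few B cell barcodes that also met another class rule. Without them the pooled level of responding B cells was 17865 CPM, below macrophages. Per cell, with all B cells kept, the responding median was 2.49% of UMIs in B cells and 1.66% in macrophages. Neutrophils stood at 522 CPM (494 to 551) and 678 CPM (659 to 699), and T or NK cells at 125 CPM (94.8 to 161) and 168 CPM (135 to 207). With all B cells kept, no 2 neighbors in that order had overlapping intervals in either library, for counting error alone. Macrophages held 92.5% of the class II UMIs of all kept cells in the non-responding library and 87.0% in the responding library, while they were 46.1% and 28.1% of the cells.

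Within a library, the summed level of macrophages exceeded that of neutrophils by 4.79 on the log2 scale (4.71 to 4.87) in non-responding and by 4.87 (4.83 to 4.92) in responding, which is 27.7-fold and 29.3-fold. The 7 genes other than Ciita were between 18.0-fold and 35.4-fold higher in macrophages in the 2 libraries. Against B cells the order turned: macrophages were lower in the sum by 0.65 (log2 -0.65, -0.70 to -0.61) in non-responding and only slightly so in responding (-0.08, -0.12 to -0.04). H2-DMb1 stood against this order and was higher in macrophages than in B cells in both libraries (log2 0.84, 0.21 to 1.56, and 1.57, 1.001 to 2.20). Without the B cell barcodes that met a second rule, the responding sum was higher in macrophages (19872 CPM) than in B cells (17865 CPM).

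**Figure D1:**
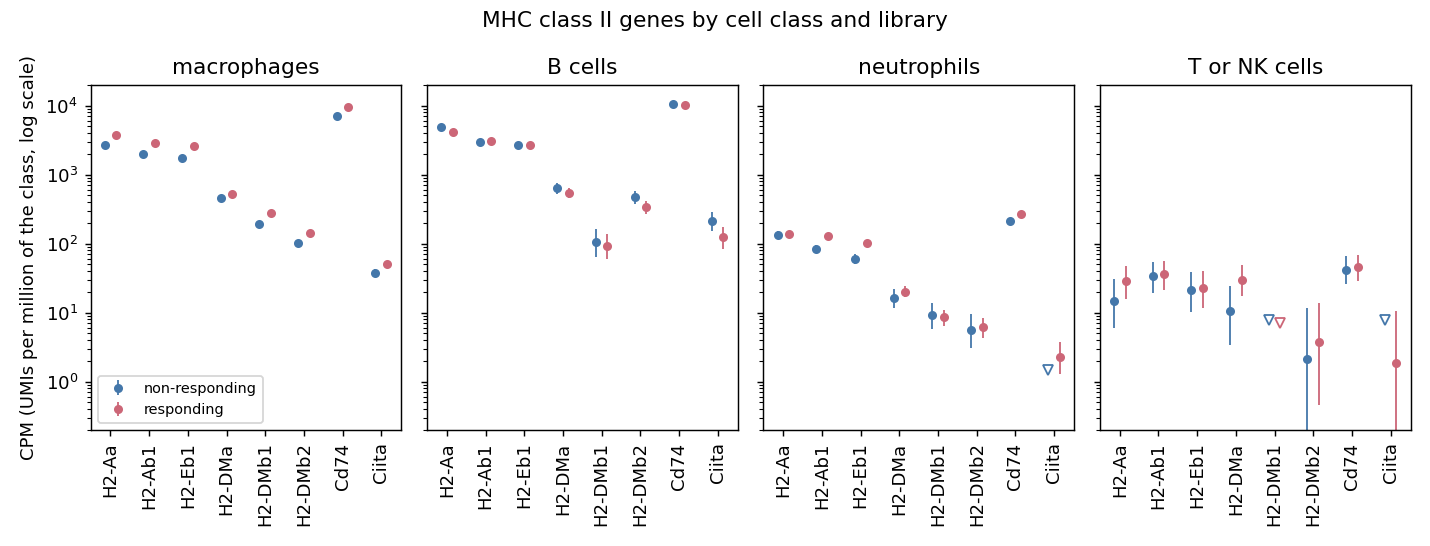
CPM (UMIs per 1e6 UMIs of the class, log scale) of each of the 8 genes in macrophages, B cells, neutrophils and T or NK cells, with blue for the non-responding and red for the responding library. Bars are exact 95% Poisson intervals, and an open triangle marks the upper limit of a gene with 0 UMIs. Cd74 stood at 7209 and 9589 CPM in macrophages and at 211 and 271 CPM in neutrophils.

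In macrophages all 8 genes were higher in the responding library, and together they were 1.37-fold higher (log2 0.46, 0.45 to 0.47). Of the 8 members, 0 reached a 1.5-fold difference, a fold that 3.35% of the 8567 genes with at least 100 UMIs reached upward in macrophages. At 1.25-fold, a limit chosen after seeing the data, 7 of 8 were past it against 8.93% of all genes. The median log2 ratio of the 8 genes was 0.49, and that of all 8567 genes was -0.03. The count past 1.5-fold was 6 of 8 with no upper limit on detected genes, 3 with stricter classes and 1 with TMM or DESeq2 scaling. The share of all genes past 1.5-fold was not counted at these settings, so these counts cannot be read against 3.35%.

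Other genes differed between the 2 macrophage classes as well. Of 8 monocyte or macrophage markers 2 were at least 1.5-fold lower in responding, beside 2.93% of the 8567 genes. The median log2 ratio of these markers was -0.22, and Fcgr1 was higher (179 and 261 CPM). S100a8 and S100a9 summed to 545 and 1084 CPM. Of 4 B cell markers with enough UMIs 2 were at least 1.5-fold higher, beside 3.35% of the 8567 genes. They were Ighm at 19.1 and 30.1 CPM and Igkc at 0.799 and 14.3 CPM. The part of these differences in the class II ratio was not tested.

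The chains that form the displayed molecule had ratios from 0.47 to 0.57. H2-Eb1 went from 1766 CPM (1739 to 1794) to 2627 CPM (2595 to 2661), or 0.57 (0.54 to 0.60) on the log2 scale. H2-Ab1 went from 1984 CPM to 2889 CPM (log2 0.54, 0.51 to 0.57), and H2-Aa from 2722 CPM to 3780 CPM (log2 0.47, 0.45 to 0.50). H2-Aa thus differed somewhat less between the libraries than H2-Ab1 or H2-Eb1, by more than the counting error. With cells thinned to 1000 UMIs the intervals overlapped: 0.38 (0.30 to 0.46) for H2-Aa, 0.44 (0.34 to 0.53) for H2-Ab1 and 0.43 (0.33 to 0.53) for H2-Eb1.

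Cd74, the chaperone of these chains, went from 7209 CPM (7153 to 7265) to 9589 CPM (9526 to 9652), or 0.41 (0.40 to 0.43) on the log2 scale. Ciita, the co-activator, was sparse, with 334 and 476 UMIs in the 2 macrophage classes, and went from 38.1 CPM (34.1 to 42.4) to 51.1 CPM (46.6 to 55.9). The interval of its log2 ratio of 0.42 (0.22 to 0.63) overlapped those of all 7 other members.

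The peptide-exchange genes split. H2-DMa, the alpha chain of DM, had the smallest ratio of the 8 genes in macrophages, from 457 CPM (443 to 472) to 516 CPM (502 to 531), or 0.18 (0.11 to 0.24) on the log2 scale. With cells thinned to 1000 UMIs its ratio was 0.03 (-0.17 to 0.24), and as a mean over cells 0.05. The beta chains H2-DMb1 (191 and 276 CPM, log2 0.54, 0.45 to 0.63) and H2-DMb2 (101.4 and 143 CPM, log2 0.50, 0.37 to 0.62) moved with the I-A and I-E chains. As a result H2-DMa made up 61.0% (59.8 to 62.2) of the DM UMIs of non-responding macrophages and 55.2% (54.1 to 56.2) of those of responding macrophages.

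**Figure D2:**
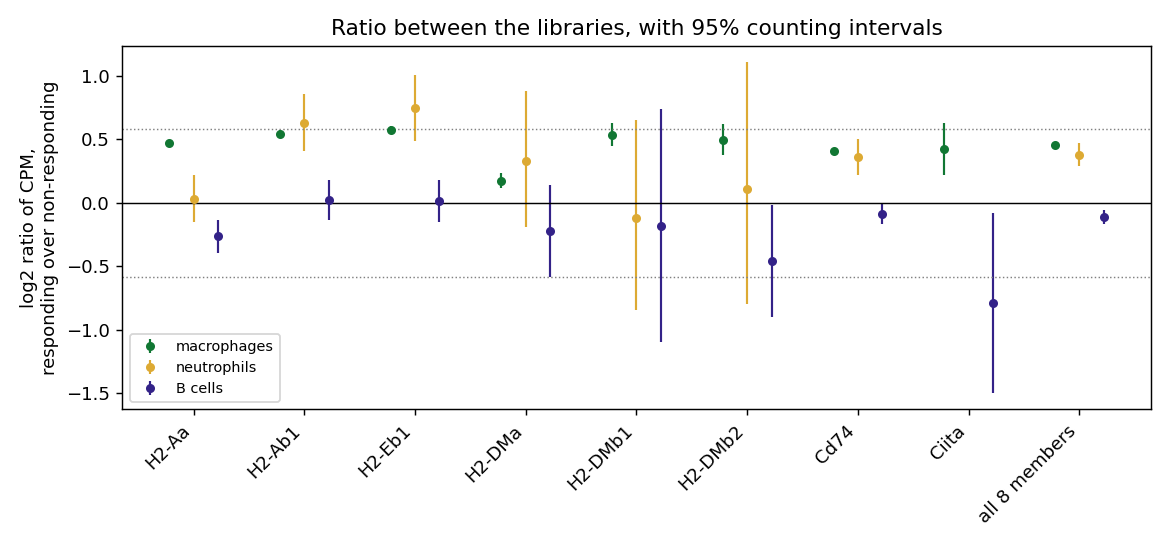
Log2 ratio of CPM, responding over non-responding, for each gene and for their sum in macrophages (green), neutrophils (yellow) and B cells (indigo). Bars are exact 95% intervals for counting error only, dotted lines mark 1.5-fold, and a gene with 0 UMIs in 1 library is left out. All macrophage values lie above 0, from 0.18 for H2-DMa to 0.57 for H2-Eb1, and the B cell values lie between -0.79 and 0.02.

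The levels above are sums over cells, and single macrophages varied far more than the libraries did. In non-responding macrophages the 8 genes took a median of 0.972% of a cell's UMIs, with the middle 50% of cells between 0.197% and 2.25% and a highest cell at 9.76%. In responding macrophages the median was 1.66%, the middle 50% lay between 0.565% and 2.88%, and the highest cell was at 7.64%. The upper ends were closer, with 95th percentiles of 4.17% and 4.62%.

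Fewer responding macrophages were low and more were high. Cells with under 0.1% class II were 17.7% (15.1 to 20.5) of non-responding macrophages, 141 of 796, and 8.43% (6.76 to 10.4) of responding macrophages, 82 of 973. Cells with at least 1% were 49.2% (45.7 to 52.8) and 64.9% (61.8 to 67.9), and cells with at least 2% were 29.1% (26.0 to 32.4) and 42.7% (39.5 to 45.8). Cells with at least 4% were 5.65% (4.15 to 7.49) and 9.25% (7.50 to 11.2). Within a bin of the share the libraries had nearly the same level, which the bin limits in part fix: from 2% to 4% it was 28826 and 28769 CPM, and from 0.1% to 1% it was 5022 and 5094 CPM.

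The order held at equal depth. With every macrophage thinned to 1000 UMIs (26 and 37 shallower cells left out), the median cell held 10 class II UMIs in non-responding and 16 in responding, and 50.4% (46.8 to 54.0) and 65.3% (62.1 to 68.3) of cells held at least 10. Among macrophages of under 2500 UMIs the summed level differed less (15337 and 16751 CPM, log2 0.13, 0.07 to 0.18) than in the 4 deeper ranges (log2 0.38 to 0.46).

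**Figure D3:**
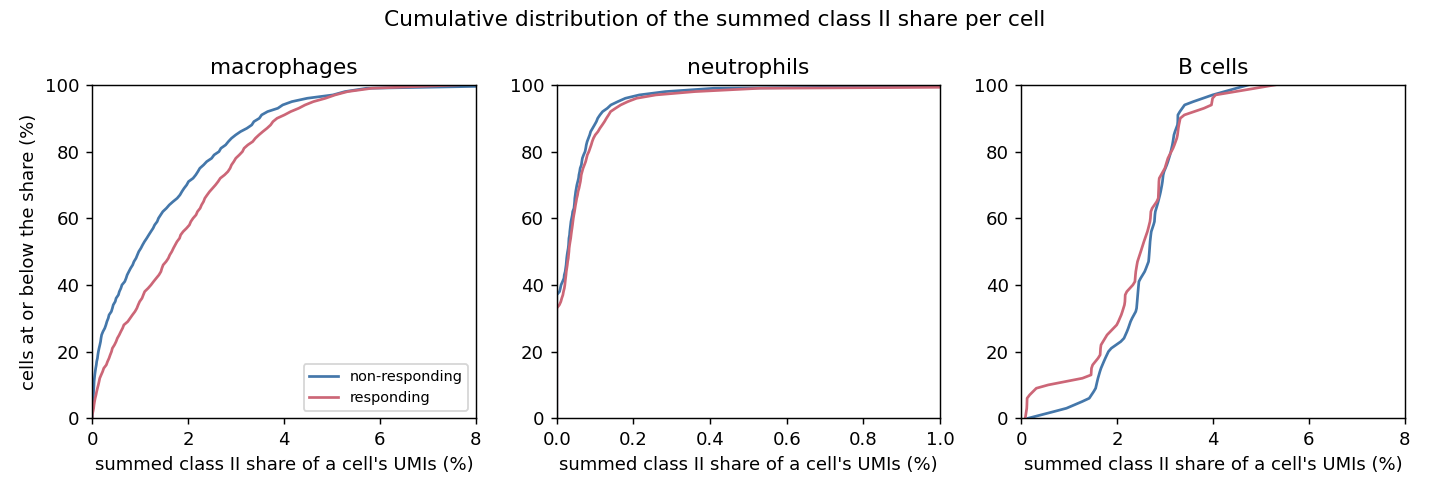
Percent of cells (vertical axis) at or below a given summed class II share of the cell's UMIs (horizontal axis, percent) in macrophages, neutrophils and B cells, blue for non-responding and red for responding. The horizontal axis of the neutrophil panel ends at 1%, and those of the others at 8%. The macrophage curves are apart at the low end and at the medians of 0.972% and 1.66%, while neutrophil medians are 0.0284% and 0.0318%.

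The macrophages lowest in class II kept H2-DMa and Cd74 above the T or NK level in both libraries, and H2-Ab1 in responding. In cells with under 0.1% class II, H2-DMa stood at 138 CPM (121 to 157) in non-responding and 105 CPM (83.2 to 131) in responding. H2-DMa in T or NK cells, by comparison, stood at 10.6 CPM (3.43 to 24.6) and 30.2 CPM (17.3 to 49.0). H2-Aa in the same low macrophages was at 21.8 CPM (15.3 to 30.2) and 31.9 CPM (20.4 to 47.5), which overlaps its T or NK level of 14.8 CPM (5.94 to 30.4) and 28.3 CPM (15.8 to 46.7). H2-Ab1 was at 44.9 CPM (35.2 to 56.3) and 79.8 CPM (60.9 to 103). Its T or NK level was 33.8 CPM (19.3 to 54.8) and 35.9 CPM (21.6 to 56.0), so the intervals overlap in non-responding but not in responding. Cd74 was at 176 CPM (156 to 197) and 182 CPM (153 to 215), above its T or NK level of 42.2 CPM (25.8 to 65.2) and 45.3 CPM (29.0 to 67.4).

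From those cells to macrophages with 4% or more class II, H2-DMa went from 138 to 975 CPM in non-responding, whereas H2-Aa went from 21.8 to 9680 CPM and H2-Eb1 from 12.7 to 7399 CPM. H2-DMa accordingly made up 33.7% (30.1 to 37.4) of the class II UMIs of the lowest non-responding macrophages and 2.0% (1.80 to 2.21) of those of the highest. The responding library had the same shape, with 24.8% (20.1 to 29.9) and 1.97% (1.84 to 2.11). The bins are cut on the sum that contains H2-DMa, so these shares are a description.

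H2-Eb1 ran the other way and grew from 3.10% to 15.2% of the class II UMIs from the lowest to the highest non-responding macrophages, and from 4.08% to 15.0% in responding. Cd74 was highest in the bin from 0.1% to 1%, at 60.04% (59.2 to 60.9) and 58.0% (57.1 to 59.0), and was 46.5% and 45.9% in the top bin.

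**Figure D4:**
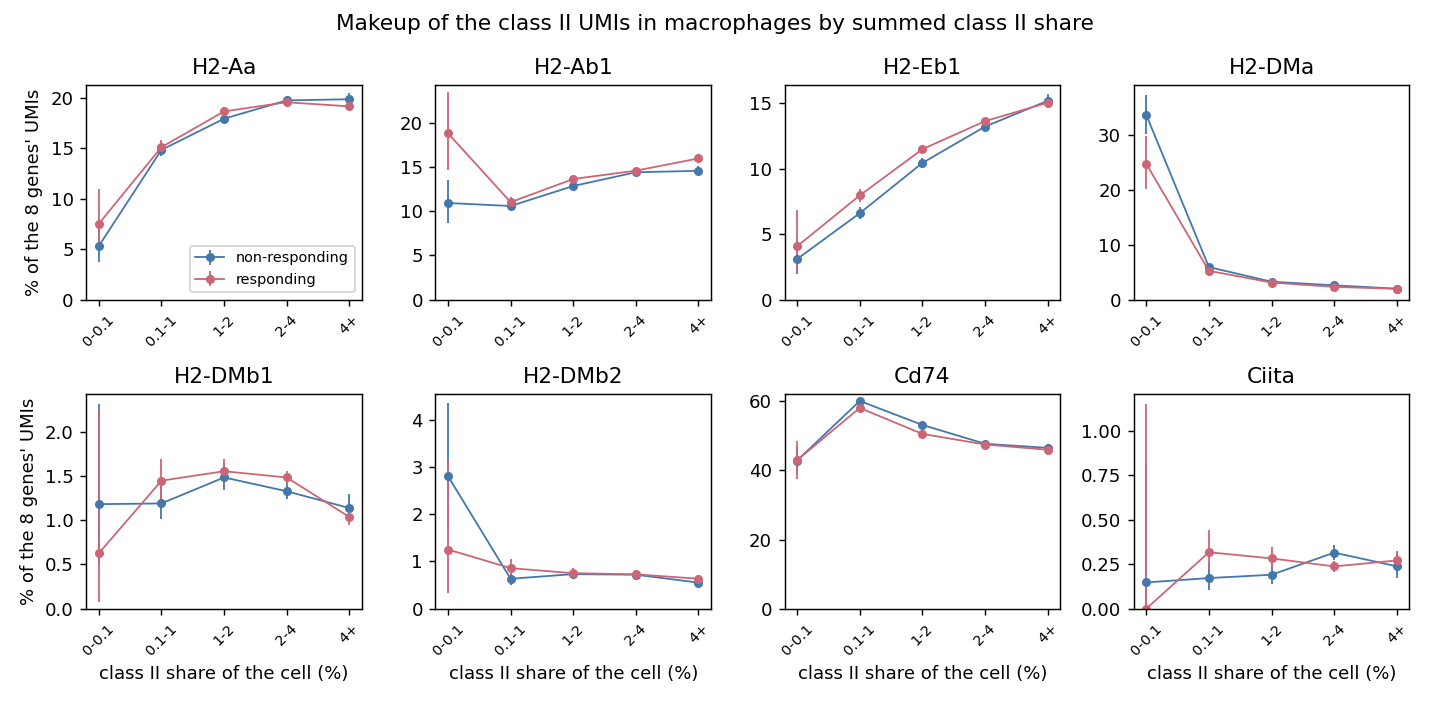
Percent of the class II UMIs contributed by each gene (vertical axes) in macrophages binned by the summed class II share of the cell (horizontal axes, percent of UMIs), blue for non-responding and red for responding, with exact 95% binomial intervals. H2-DMa falls from 33.7% and 24.8% in the lowest bin to 2.0% and 1.97% in the highest, and H2-Eb1 climbs to 15.2% and 15.0%.

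Across single macrophages of at least 1500 UMIs, at 1000 thinned UMIs, the chains and Cd74 followed each other closely. Spearman's rho between any 2 of H2-Aa, H2-Ab1, H2-Eb1 and Cd74 was between 0.72 and 0.81 over 675 non-responding cells and between 0.71 and 0.76 over 834 responding cells. H2-DMa followed H2-Aa less closely (rho 0.32 and 0.27), as did H2-DMb2 (0.18 and 0.20) and Ciita (0.19 and 0.12). Cells of a library share its depth and preparation, H2-DMb2 and Ciita have a UMI in few thinned cells (Ciita in 2.99% and 4.17%), and sparse counts lower rho, so these values are a description.

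By the same measure the genes outside the 8 that followed the summed class II share most closely, of 1191 genes found in at least 10% of those cells in both libraries, were Apoe (rho 0.40 and 0.53), C1qa (0.30 and 0.49), Ctss (0.28 and 0.38), Cst3 (0.28 and 0.31), C1qb (0.26 and 0.46), AW112010 (0.29 and 0.25), Tmem176b (0.25 and 0.31), C1qc (0.24 and 0.39), H2-D1 (0.23 and 0.24) and Aif1 (0.28 and 0.22). Ctss encodes the cathepsin that trims CD74, Cst3 a cathepsin inhibitor and H2-D1 an MHC class I heavy chain. Apoe and the 3 C1q genes belong to the rule that chose the macrophages. Among the 10 genes at the other end, not all named here, were F13a1 (-0.34 and -0.31), Anxa2 (-0.30 and -0.34), S100a6 (-0.28 and -0.34) and Arg1 (-0.23 and -0.32). The median rho over the 1191 genes was -0.00 and 0.00.

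Macrophages were also split by a UMI of 1 gene at 1000 thinned UMIs, where cells without a UMI can still express it. Arg1, the arginase of suppressive myeloid cells, marked the lower cells: those with it had 11930 CPM of class II against 18934 CPM without it in non-responding, and 15845 against 24695 CPM in responding. Both sides were higher in the responding library, by 0.41 (0.39 to 0.42) with Arg1 and 0.38 (0.37 to 0.40) without it. Arg1 was found in 63.1% of non-responding and 54.0% of responding macrophages.

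Cxcl9, a chemokine induced by interferon gamma, and Cx3cr1, the fractalkine receptor, marked high cells in which the summed levels of the libraries were close. Macrophages with Cxcl9 (57 and 79 cells) had 26396 and 26186 CPM, a log2 ratio of -0.01 (-0.04 to 0.02), and those with Cx3cr1 (99 and 132 cells) had 22418 and 22731.5 CPM (0.02, -0.00 to 0.04). Macrophages without them stood at 13718 and 19252 CPM where Cxcl9 was lacking (0.49, 0.48 to 0.50) and 13045 and 19222 CPM where Cx3cr1 was lacking (0.56, 0.55 to 0.57). Cells with Cxcl9 had a median depth of 7279 and 12061 UMIs, and their median class II share per cell was 2.72% in non-responding and 2.32% in responding.

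Mrc1, the mannose receptor, went with slightly higher class II in both libraries (15329 against 13943 CPM, and 21816 against 19262 CPM), as did the cycling marker Mki67 (17881.5 against 14143 CPM, and 23737 against 19419 CPM). Ly6c2 was found in 5 and 25 macrophages, and the order differed between the libraries: those cells had 20018 CPM in non-responding, above the rest, and 17198 CPM in responding, below the rest.

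**Figure D5:**
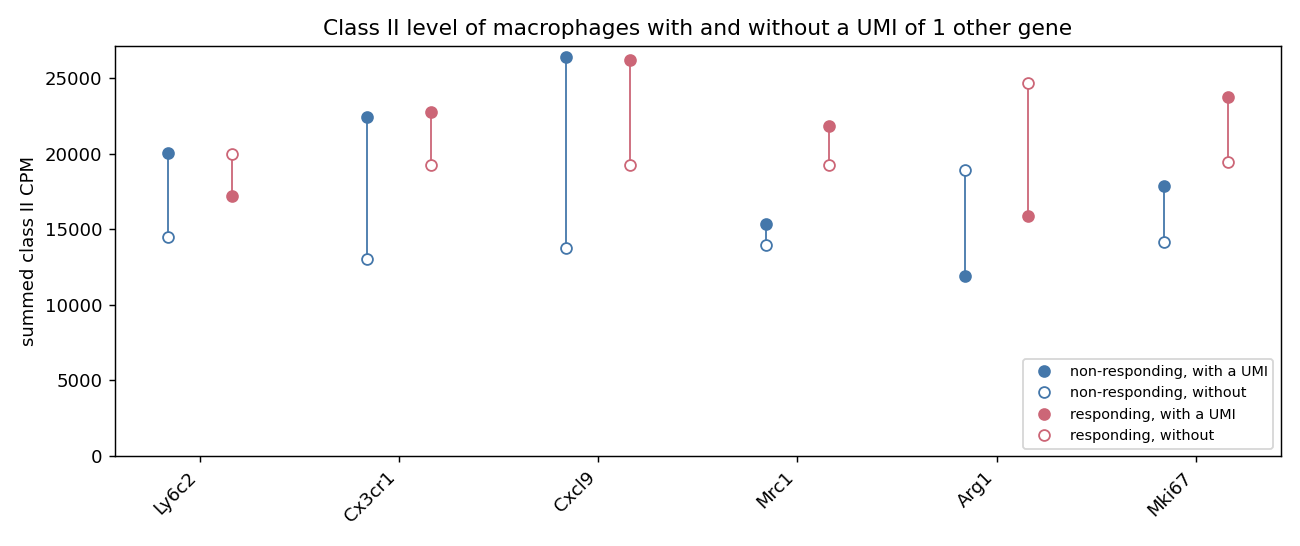
Summed class II CPM (linear axis from 0) of macrophages with (filled) and without (open) a UMI of the gene on the horizontal axis at 1000 thinned UMIs, blue for non-responding and red for responding. The filled points of Cxcl9 are level between the libraries at 26396 and 26186 CPM, the open ones are not, and Arg1 is the gene whose filled points lie below the open ones in both libraries.

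Neutrophils held little class II RNA. The median neutrophil had 0.0284% of its UMIs from the 8 genes in non-responding and 0.0318% in responding, and 31.8% (28.1 to 35.7) and 35.0% (32.8 to 37.4) of neutrophils had any class II UMI among 1000. The share in T or NK cells was 8.22% (3.08 to 17.04) and 16.0% (9.22 to 24.95). Unthinned, it was 62.6% and 66.3% of neutrophils, whose median depth was 3050.5 and 2957 UMIs, and 45.2% and 55.8% of T or NK cells, at 5605 and 5548 UMIs.

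The summed CPM of neutrophils was 4.19-fold that of T or NK cells in non-responding (log2 2.07, 1.69 to 2.47) and 4.04-fold in responding (log2 2.01, 1.71 to 2.33). A few barcodes weighed heavily. The 5 non-responding and 21 responding neutrophils with at least 0.5% class II held 30.5% and 34.7% of the class's class II UMIs, and 1 non-responding barcode with 2 dendritic cell markers held 12.9%. Without the barcodes at 0.5% or more, a limit set after seeing the data, 370 and 452 CPM remained, or 2.97-fold and 2.69-fold the T or NK level.

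C1qa, C1qb and C1qc, macrophage genes that the neutrophil rule limits but does not exclude, were also higher in neutrophils than in T or NK cells. They summed to 154 and 145 CPM against 50.6 and 54.7 CPM. Without the neutrophils of 0.5% or more class II, the C1q genes still summed to 148 and 137 CPM. The part of macrophage RNA in the neutrophil values was not tested. H2-DMa had no excess over T or NK cells beyond counting error in neutrophils (log2 0.61, -0.73 to 2.31, and -0.58, -1.33 to 0.27), and Ciita had 0 UMIs in the 2484591 UMIs of non-responding neutrophils, an upper limit of 1.48 CPM, and 15 UMIs, 2.28 CPM (1.28 to 3.77), in responding neutrophils.

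Between the libraries, neutrophils were 1.30-fold higher in the sum in responding (log2 0.38, 0.29 to 0.47). Markers of other cells also differed between the 2 neutrophil classes. Of 4 monocyte or macrophage markers with at least 100 UMIs 3 were at least 1.5-fold higher in responding, with a median of 1.18, among them Ccr2 (6.44 and 22.4 CPM) and Fcgr1 (8.45 and 21.2 CPM), while Lyz2 was lower. Of 3 B cell markers 2 were past 1.5-fold, Ighm at 3.62 and 14.6 CPM and Igkc at 2.41 and 31.8 CPM. Their part in the class II ratio was not tested. Of the 5 members with at least 100 UMIs, 2 were at least 1.5-fold higher, which 7.98% of 4937 genes were in neutrophils. At 1.25-fold the counts were 4 of 5 and 20.6%. H2-Eb1 went from 60.8 CPM (51.5 to 71.3) to 102 CPM (94.3 to 110), or 0.75 (0.49 to 1.01) on the log2 scale. H2-Ab1 went from 83.7 to 129 CPM (log2 0.63, 0.41 to 0.85), and Cd74 from 211 to 271 CPM (0.36, 0.22 to 0.51).

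H2-Aa in neutrophils stood at 136 CPM (122 to 151) and 139 CPM (130 to 148), and the log2 ratio was 0.03 (-0.15 to 0.22), or -0.02 with TMM or DESeq2 scaling. Its share of the H2-Aa and H2-Ab1 UMIs was 61.8% (57.6 to 65.9) in non-responding and 51.8% (49.4 to 54.1) in responding neutrophils, while macrophages stood at 57.8% and 56.7%. Removing the 1 non-responding barcode with dendritic cell markers changed the H2-Aa ratio to 0.26 (0.07 to 0.46). Removing the barcodes with the highest doublet scores lowered the summed ratio of neutrophils to 0.18 (0.08 to 0.28) and left 0 members at 1.5-fold. Removing the barcodes at 0.5% or more also left 0 members at 1.5-fold. The share of all genes past 1.5-fold was not counted at these settings.

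Most B cells were high, with medians of 2.67% and 2.49% of UMIs and 94.3% (33 of 35, 80.8 to 99.3) and 87.9% (29 of 33, 71.8 to 96.6) of cells at 1% or more. The sum was slightly lower in responding (log2 -0.11, -0.17 to -0.05), opposite in sign to macrophages. Among B cells at 1% or more, a cut on the sum itself, the order turned, with 24995 CPM in non-responding and 26560 CPM in responding. Below 1% in responding were 1 cell under 0.1%, of 13307 UMIs, and 3 cells from 0.1% to 1%, of median 19955 UMIs. The part of these deep low cells in the ratio was not tested. H2-Aa went from 4937 to 4109 CPM (log2 -0.26, -0.39 to -0.14), and Ciita from 212 CPM (152 to 289) to 123 CPM (84.8 to 173), or -0.79 (-1.50 to -0.08) on the log2 scale on 40 and 33 UMIs.

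The B cell value depended on few barcodes. The C1q genes stood at 74.3 CPM in non-responding and 1362 CPM in responding B cells, and 4 barcodes in each library also met the neutrophil or macrophage rule. Without those barcodes, an alternative added after seeing the data, the C1q genes stood at 55.4 and 27.3 CPM, the class II sum was 23874 and 17865 CPM, and the log2 ratio was -0.42 (-0.48 to -0.35), with all 8 members below 0. The responding sum was then below the 19872 CPM of responding macrophages. The immunoglobulin genes differed between the B cells of the libraries, with Ighm at 1285 and 15746 CPM and Igkc at 18956 and 56694 CPM. Whether the class II value moves with these immunoglobulin genes was not tested.

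B cells also differed from macrophages in makeup. H2-DMb1 was 18.5% (11.7 to 27.1) and 21.6% (14.5 to 30.1) of the H2-DMb1 and H2-DMb2 UMIs in B cells, and 65.3% (63.4 to 67.1) and 65.9% (64.4 to 67.4) in macrophages. Both libraries gave the same split within their intervals. Neutrophils lay near macrophages, at 62.2% (44.8 to 77.5) and 58.3% (47.8 to 68.3). Ciita was 1.95% (1.40 to 2.64) and 1.21% (0.833 to 1.69) of the Ciita and Cd74 UMIs in B cells against 0.526% and 0.530% in macrophages. H2-Oa and H2-Ob, which encode the DM inhibitor DO, had 26 and 34, and 42 and 36 UMIs in B cells, that is 138 and 127 CPM and 223 and 134 CPM, while neither exceeded 3.33 CPM in macrophages.

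Other genes of the pathway were taken from gene lists, for genes with at least 100 macrophage UMIs over both libraries. Of 10 genes that process antigen or CD74, 6 were higher in responding, with a median log2 ratio of 0.07, where 3744 of all 8567 genes were higher. Ctss was higher (2171 to 2861 CPM, log2 0.40, 0.37 to 0.43) as was Ctsh (0.42, 0.36 to 0.49), whereas the lysosomal proteases Ctsd (-0.19, -0.23 to -0.15) and Lgmn (-0.20, -0.24 to -0.17) were lower. Of 12 transcription factors that act on class II promoters or on Ciita, 7 were higher and the median was 0.02. Of these 12, 2 were at least 1.5-fold higher, beside 3.35% of the 8567 genes. The highest ratio of that list was 0.81, in a gene not named here. Rfxank, a subunit of the X-box factor, was higher (log2 0.59, 0.03 to 1.16, on 45 and 72 UMIs), while Irf1 (-0.17, -0.31 to -0.03) and Irf8 (0.04, -0.05 to 0.12) had smaller or negative ratios.

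All 9 MHC class I genes were higher in responding macrophages, 9 of 9 by at least 1.25-fold and 3 of 9 by at least 1.5-fold, with a median log2 ratio of 0.47. Of all 8567 genes, 8.93% were higher by at least 1.25-fold and 3.35% by at least 1.5-fold. H2-K1, a class I heavy chain, went from 979 to 1484 CPM (log2 0.60, 0.56 to 0.64), and the peptide transporter gene Tap1 from 73.9 to 139 CPM (0.91, 0.77 to 1.05). Of 14 genes induced by interferon gamma, 12 were higher, 8 of them by at least 1.5-fold, with a median of 0.64. Gbp2 (54.1 and 105 CPM, log2 0.95, 0.79 to 1.12) and Igtp (15.2 and 31.0 CPM, 1.03, 0.73 to 1.34) were higher, but Cxcl10 was at 330 and 320 CPM (-0.04, -0.12 to 0.03).

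Of 6 genes in a mixed list of costimulators and checkpoint ligands, 5 were higher, with a median of 0.19, beside the same 3744 of 8567. Cd80 (log2 -0.07, -0.25 to 0.11), Cd86 (0.02, -0.08 to 0.12) and Pdcd1lg2 (0.10, -0.26 to 0.46) had intervals that include 0, and Cd274, which encodes PD-L1, went from 171 to 240 CPM (0.49, 0.39 to 0.58). Of 3 genes for class II turnover, 1 was higher, with a median of -0.30, beside the same 3744 of 8567. The higher gene was March1, whose product marks class II for degradation, at 55.5 and 68.0 CPM (0.29, 0.12 to 0.47). Cd83, which opposes it, was at 306 and 249 CPM (-0.30, -0.38 to -0.22). The lowest ratio of the list was -0.45, in the gene not named here.

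Dendritic cells are strong class II expressers, and barcodes with at least 2 of their markers were few in the macrophage class. The 10 dendritic cell markers summed to 19.3 and 26.4 CPM there, with 0 and 2 of them at 0 UMIs (Zbtb46 and Siglech in responding). The 6 and 10 macrophages with at least 2 of them had 25422 and 33735 CPM of class II. Leaving such barcodes out gave a log2 ratio between the libraries of 0.46 (0.45 to 0.47), as with them. Dendritic cells with fewer markers detected would stay in the class, and their part in the ratio was not tested.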

How the data were processed

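The 2 pooled GR1+ libraries were read with 10x Genomics chemistry, aligned to mm10 by the authors and turned into UMI counts with Cell Ranger (4.0.0 in the submitters' processing notes and the file headers). The deposited counts are raw whole numbers, and the smallest barcode has 500 UMIs. The 8 genes, the class rules and the gene lists were chosen with earlier results of these data known.

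Levels are class sums of UMIs as CPM, with exact Poisson intervals. Ratios have exact conditional intervals and shares exact binomial (Clopper-Pearson) intervals, all at 95%, from scipy 1.17.1 in Python 3.11.15. The ratio intervals were run on simulated Poisson counts, the model they assume, which lack the spread between cells. Intervals cover counting error only. B cells took precedence (4 and 4 barcodes met a second rule), and doublets were left in for the main values. Thinning drew UMIs without replacement (seed 1). The text names the 8 genes, list genes that carry or leave their group, and the 10 genes of highest rho. Alternatives were TMM factors (edgeR 4.0.16), size factors (DESeq2 1.42.0), removal of the highest Scrublet scores (scanpy 1.11.5, 69 and 200 barcodes), other filters and stricter classes. With 1 library per tumor, no test between libraries was made. Some list genes and the marker sums that hold them are not reported here.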

Additional observations from a re-analysis of the deposited data

Results flagged for a closer look

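The difference between the libraries had opposite signs in macrophages and in B cells for 4 of the 8 genes and for their sum, with each class's interval clear of 0. How many of all genes meet the same rule was not counted, so the 4 of 8 is only a description. The log2 ratio in macrophages exceeded that in B cells by 0.74 for H2-Aa, 0.96 for H2-DMb2, 0.50 for Cd74, 1.21 for Ciita and 0.57 for all 8 genes together. Without the B cells that met a second rule, the B cell ratio was -0.41 for Cd74, -0.42 for the sum and -0.45 for H2-DMb2 (-0.92 to 0.02, an interval that then includes 0). The B cell values rest on 35 and 33 cells, and the difference itself was not tested. Among B cells at 1% or more class II, the sum was higher in responding (24995 and 26560 CPM).

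Barcodes outside the 4 named classes held class II RNA above the level of T or NK cells (125 and 168 CPM). Barcodes under 500 genes had 2583 CPM in non-responding and 5264 CPM in responding, those over 5000 genes had 6685 and 10596 CPM, and those over 10% mitochondrial UMIs had 6514 and 6806 CPM. Among the kept cells, those in no class had 4061 and 4447 CPM, and those with both the neutrophil and the macrophage signature (11 and 53 cells) had 7615 and 17914.5 CPM. Of the cells in no class, 9 and 30 had at least 1% class II, and 6 and 9 of these had at least 2 dendritic cell markers.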

How the results depend on the processing

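Between the libraries, the summed class II log2 ratio of macrophages and of neutrophils stayed above 0 under every alternative run for them, and that of B cells was below 0 in both of its settings (-0.11 and -0.42). In macrophages (0.46) it was 0.36 with cells thinned to 1000 UMIs, 0.40 at a mitochondrial limit of 5%, 0.61 with no upper limit on genes, 0.51 with stricter classes, 0.47 in cells of at least 2500 UMIs, 0.49 with TMM, 0.49 with DESeq2 size factors and 0.39 as a mean over cells. The members past 1.5-fold (0) became 6 with no gene limit, 3 with stricter classes, 1 each at 2500 UMIs, TMM and DESeq2, and 7 at 1.25-fold. In neutrophils (0.38) the ratio was 0.49 with no gene limit, 0.78 with stricter classes, 0.24 with B-rule barcodes left in, 0.18 without the highest Scrublet scores, 0.57 without barcodes of 2 dendritic cell markers and 0.28 as a mean over cells. Their members past 1.5-fold (2) became 4 with stricter classes, 1 each with TMM and DESeq2, 4 at 1.25-fold, and 0 when thinned, with B-rule barcodes left in, without the highest Scrublet scores, without neutrophils of 0.5% or more, or as a mean over cells. The share of all genes past 1.5-fold was not counted under these alternatives in either class, so their member counts have no background beside them.

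Macrophages over neutrophils (4.79 non-responding, 4.87 responding) gave 4.96 and 4.95 thinned, 4.59 and 4.71 with no gene limit, 5.86 and 5.60 with stricter classes, 4.59 and 4.81 with B-rule barcodes left in, 5.03 and 5.30 without the highest Scrublet scores, 5.29 and 5.46 without neutrophils of 0.5% or more, and 4.88 and 4.99 as a mean over cells. It was 4.97 in non-responding without dendritic cell marker barcodes and 4.75 in responding at a mitochondrial limit of 5%. The share of genes past 1.5-fold went from 3.35% to 7.71% at 10 UMIs and 17.5% at 1 UMI in macrophages, and from 7.98% to 17.4% and 20.9% in neutrophils. Single members had point values above 0 in all 88 macrophage values, but with cells thinned the intervals of H2-DMa (-0.17 to 0.24), H2-DMb1 (-0.03 to 0.60) and Ciita (-0.19 to 1.34) include 0. In neutrophils 49 of 55 values of the 5 members with at least 100 UMIs were above 0, and H2-DMb1, not among the 5, was at -0.12. The cause of these shifts was not tested.

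The limits at 1.25-fold, at 0.5% and at 2500 UMIs and the B cells without a second class were chosen after seeing the data. No paired analysis was possible because each group holds 1 library. Ciita, H2-DMb1 and H2-DMb2 in neutrophils and all B cell values are limited by few UMIs.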

Other observations

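Among kept cells in no class, those with at least 2 dendritic cell markers (11 and 16 cells) had 19046 CPM (18286 to 19829) and 20619 CPM (19973 to 21281) of class II. H2-Aa made up 24.8% and 25.8% of their class II UMIs, against 18.8% and 19.0% in all macrophages, and Cd74 made up 43.1% and 39.9%. Barcodes under 500 genes reached a class II share of 13.9% in the responding library, above the highest macrophage of either library.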
